A study of Homo sapiens with 4 samples.

Results

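The variable exons of CD44 were examined through every splicing event that carried the gene symbol CD44 in 5 event tables from U87MG cells, an established human glioblastoma line that the labels describe only as likely glioblastoma. CD44 held 166 of 121269 events, of which 87 were skipped exon events, where an exon is kept or left out, and 79 were mutually exclusive exon events, where the reads of 2 exons between the same flanks are set against each other. None of the alternative 3′ splice site, alternative 5′ splice site or retained intron events was in CD44 (0 of 4387, 0 of 3203 and 0 of 1290). There were 4 RNA-seq libraries. All 4 came from cells that received 2.5 µM of oligonucleotide with lipofectamine 2000. RBFOXi, given to 2 of them, is a single-stranded RNA with a 2′-O-methyl group on every ribose and tandem copies of the motif bound by RBFOX proteins, and it serves as a decoy for them. In RBFOXi replicate 1, but not in RBFOXi replicate 2, it carried a Cy5 dye. The other 2 libraries received SCRM, the scrambled control, with no dye named. The study's methods describe the 2 libraries of each group as independent biological replicates. The comparison of RBFOXi with SCRM asks which exons respond when RBFOX proteins are offered a decoy.

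CD44 is a transmembrane receptor for hyaluronan, a sugar polymer of the extracellular matrix. Its standard form joins constant exons at both ends of the gene, and longer forms insert variable exons into the stalk between the hyaluronan-binding domain and the membrane. Epithelial cells are known for long forms, and the splicing regulators ESRP1 and ESRP2 favour them there, whereas mesenchymal and glial cells carry mostly the standard form. RBFOX proteins bind UGCAUG in introns. As a rule of thumb, binding after an exon favours its inclusion and binding before it favours skipping.

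In GENCODE, lifted to hg19, CD44 runs on the plus strand at chr11:35160429-35253949. Its longest annotated transcript with this structure (CD44-208) has 18 exons and the standard one (CD44-201) has 9. The 9 exons in both are called c1 to c9 here, and the 9 exons between c5 and c6 carry their usual names v2 to v10 (a v1 exon is not in this transcript and had no event). Each of the 9 variable exons is wholly coding and has a length that is a multiple of 3, so that any of them can be left out with the reading frame kept. They are 129, 126, 114, 117, 129, 132, 102, 90 and 204 nt long from v2 to v10, or 1143 nt together. They lie between chr11:35218293-35218421 (v2) and chr11:35232793-35232996 (v10).

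The 3′ splice sites of v3 to v10 are shown because the reads below divide these exons into those joined directly to c5 and those that were almost never joined to it. Each line holds the last 24 intron bases and the first 6 exon bases, 5′ to 3′, from GRCh37 (hg19), plus strand, with the AG that ends the intron in capitals.
v3, chr11:35219644-35219673: cactaatgcaagtcaccacaacAGgtacgt
v4, chr11:35222605-35222634: ttgcttcaatcatcgttatcacAGtttcaa
v5, chr11:35223194-35223223: tgtatttaaccatcatcacagcAGatgtag
v6, chr11:35226035-35226064: tcccaactgatattcttctcacAGtccagg
v7, chr11:35227635-35227664: attgctcaaactgcatggtcacAGcagcct
v8, chr11:35229628-35229657: taacactaatattgattccttcAGatatgg
v9, chr11:35231488-35231517: tggattcattcctcattgaaacAGagcaga
v10, chr11:35232769-35232798: atcactgattccacctccacacAGatagga
Of the first 20 bases shown, C or T made up 10 in v3, 14 in v4, 12 in v5, 15 in v6, 11 in v7, 12 in v8, 12 in v9 and 14 in v10. In the constant exons c2 to c9 the number ran from 11 (c9) to 18 (c4), so the 2 kinds of exon overlapped.

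Every library held CD44 mainly in the standard form. The counts of the 87 skipped exon events formed a system of 174 equations in each library, since a skipping count is the reads on 1 junction and an inclusion count adds both junctions of the exon to the reads inside it. It gave 66 of 76 unknowns as whole numbers, with a largest misfit of 0 reads. The junction from c5 to c6 had 6843 and 8064 reads in RBFOXi replicates 1 and 2 and 5074 and 7480 reads in SCRM replicates 1 and 2. A variable exon from v3 to v10 took 8.58% and 12.1% of the reads leaving c5 for these exons or c6 with RBFOXi and 11.0% and 12.7% with SCRM. The 2 groups overlapped. Their means were 10.3% ± 2.50 (SD, n = 2) and 11.8% ± 1.18 (SD, n = 2), and the difference did not exceed the spread (two-sided exact permutation p = 0.667, where 2 against 2 libraries cannot go below 0.333). The join from c5 to v2 could not be told apart from reads inside v2, which together came to 12, 22, 12 and 12 reads, and it is left out of these shares.

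Reads that left c5 for a variable exon went mainly to v6, v3, v10, v8 and v4, and hardly at all to v5, v7 and v9. The exon v6 took 3.10% and 5.22% of the reads leaving c5 with RBFOXi and 4.12% and 5.17% with SCRM. For v3 the shares were 1.67% and 2.51% with RBFOXi and 1.74% and 2.94% with SCRM. For v10 they were 2.23% and 2.50% against 1.68% and 2.29%. The groups overlapped at these 3 exons. For v8 the shares were 1.08% and 1.21% with RBFOXi and 1.86% and 1.40% with SCRM. For v4 they were 0.454% and 0.599% against 1.39% and 0.724%. At v8 and v4 both RBFOXi libraries lay below both SCRM libraries, with the highest share in SCRM replicate 1, and the exact permutation p of each was 0.333, the smallest this design allows. The Wilson 95% interval of the v4 share, which covers counting error only, was 0.325 to 0.634% in RBFOXi replicate 1, 0.461 to 0.779% in RBFOXi replicate 2, 1.11 to 1.72% in SCRM replicate 1 and 0.565 to 0.927% in SCRM replicate 2. The interval of SCRM replicate 2 thus met those of both RBFOXi libraries, while that of SCRM replicate 1 did not. The joins from c5 to v5, v7 and v9 had at most 5 reads each in any library. There too both RBFOXi shares lay below both SCRM shares, with the same exact permutation p of 0.333, so this is not particular to v8 and v4.

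**Figure D1:**
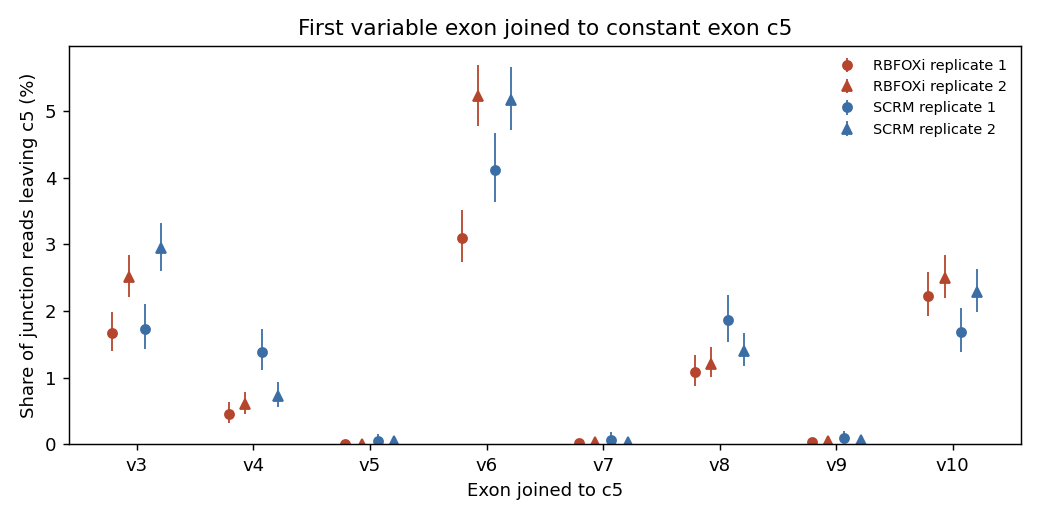
Share of the junction reads leaving constant exon c5 for each variable exon (% of reads leaving c5 for v3 to v10 or c6, y axis), by exon (x axis). Points are the 4 libraries, circles for replicate 1 and triangles for replicate 2, red for RBFOXi and blue for SCRM, and bars are Wilson 95% intervals for counting error. The exon v6 is highest in all 4 libraries, v5, v7 and v9 lie near 0, and v4 stands highest in SCRM replicate 1 at 1.39%.

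The exons that c5 skipped over were reached from the exon just before them. Over the 4 libraries, 191 of 199 reads entering v5 came from v4 (96.0%), 298 of 309 entering v7 came from v6 (96.4%) and 474 of 491 entering v9 came from v8 (96.5%). From library to library the share ranged from 91.5 to 100% for v5, from 89.7 to 97.7% for v7 and from 95.1 to 97.6% for v9. In contrast, c5 supplied 95.9% of the reads entering v3, 85.6% of those entering v6, 73.0% for v4, 63.8% for v10 and 60.3% for v8. The entering reads thus set v5 behind v4, v7 behind v6 and v9 behind v8. These are called pairs here, although the reads often ran on past the second exon, as given below. These pairs are described from reads on single junctions, which do not show how far 1 molecule extends.

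**Figure D2:**
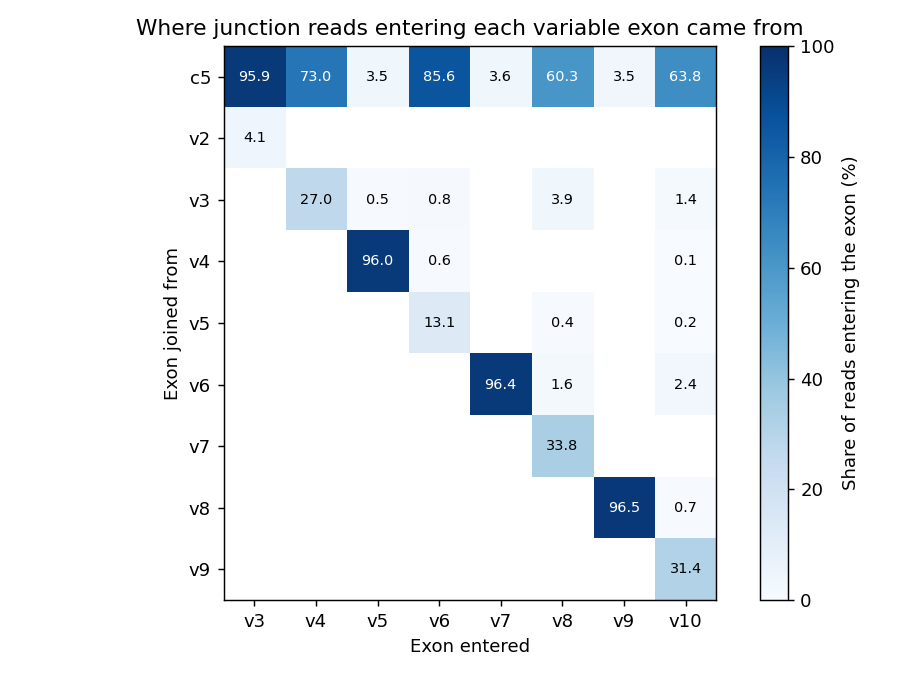
Share of the junction reads entering each variable exon (x axis) that came from each exon before it (y axis), in % of the reads entering, summed over the 4 libraries. Empty squares are joins with no event. The dark squares are v4 to v5 (96.0%), v6 to v7 (96.4%) and v8 to v9 (96.5%), beside the joins from c5 to v3, v4, v6, v8 and v10.

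Leaving the variable exons, the reads followed the same order in part. Of the reads leaving v4, 94.6% went on to v5, and of those leaving v8, 93.9% went on to v9. Of the reads leaving v5, 83.8% went on to v6 and 14.2% to c6, so v5 was seldom the last variable exon. From v9, 93.6% of reads went on to v10, by library 93.9% and 97.0% with RBFOXi and 86.7% and 95.5% with SCRM. The exon v6 was more often last, as 53.1% of the reads leaving it went to v7 and 40.3% straight to c6. By library, v6 went on to v7 in 44.6% and 49.5% of its reads with RBFOXi and in 48.6% and 61.1% with SCRM, so SCRM replicate 2 was highest and the groups overlapped. The exon v3 was followed by c6 in 49.6% of reads and by v4 in 30.4%. The exon v7 was followed by v8 in 90.2% and 89.9% of its reads with RBFOXi and in 83.3% and 80.2% with SCRM, and by c6 in the rest. This rests on 41, 69, 60 and 106 reads, and the groups did not overlap. The corresponding skipped exon event, v8 between v7 and c6, had a PSI of 79.9% and 80.4% with RBFOXi and 68.5% and 62.8% with SCRM, with a change in log2 odds of 1.00 ± 0.63 (SE) at an unadjusted p of 0.119 by limma.

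PSI, the percent of length-corrected reads that include an exon, was then taken for each exon in its event with the most counts. For all 9 variable exons this was the event between c5 and c6. Counts in these events ran from 5086 to 8797 a library, most of them skipping reads from c5 to c6. The inclusion reads were few for some exons. For v9 they were 6 and 8 with RBFOXi and 16 and 10 with SCRM. For v2 they were 13 and 22 against 12 and 14, and for v5 22 and 39 against 19 and 31. PSI corrects the counts for length and includes the reads inside an exon, so it is not the same quantity as a share of junction reads. An event between c5 and c6 also leaves out the joins of an exon to other variable exons. Over the 4 libraries 491 reads entered v9, beside 315 for v4 and 309 for v7, although v9 is the lowest below. The order below therefore holds for these events and is not the order of inclusion in CD44 RNA. The highest was v6, with 1.54% and 2.77% in RBFOXi and 2.07% and 2.59% in SCRM. Next came v10, with 1.55% and 2.03% against 1.78% and 1.81%. The exon v3 had 0.845% and 1.41% against 0.944% and 1.59%. These 3 exons were in the same range in both groups. The exon v8 had 0.481% and 0.590% against 0.851% and 0.651%, and v4 had 0.209% and 0.280% against 0.647% and 0.340%. In both, the RBFOXi libraries were the lower pair. Then came v7 with 0.113% and 0.195% against 0.133% and 0.266%, and v5 with 0.113% and 0.170% against 0.132% and 0.146%. The lowest were v2, with 0.0622% and 0.0893% against 0.0774% and 0.0613%, and v9, with 0.0361% and 0.0408% against 0.130% and 0.0550%. Neighbours in this order had overlapping values over the 4 libraries, except v5 and v2.

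**Figure D3:**
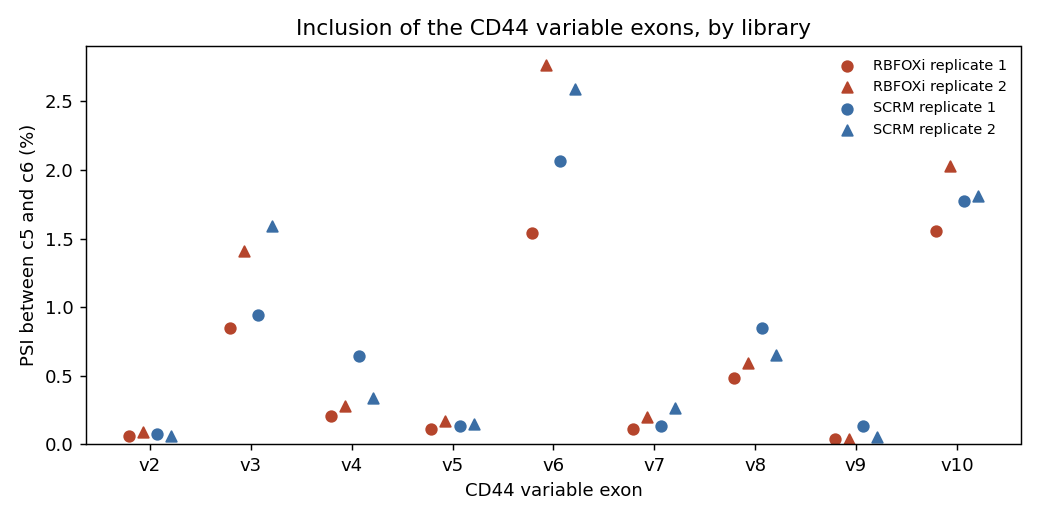
PSI (%, y axis) of each variable exon between c5 and c6 (x axis), in the 4 libraries, circles for replicate 1 and triangles for replicate 2, red for RBFOXi and blue for SCRM. No value exceeds 2.77%, and v6, v10 and v3 are the highest exons. Joins of an exon to other variable exons are not counted in these events.

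The same exon had a very different PSI against other flanks. The exon v9 went from a mean of 0.000654 (as a fraction) between c5 and c6 to 0.984 between v8 and v10, and v7 from 0.00177 between c5 and c6 to 0.965 between v6 and v8. The exon v6 reached 0.986 between c5 and v7, v4 0.971 between c5 and v5, v8 0.963 between c5 and v9, and v5 0.954 between v4 and v6. These high values restate the pairs seen in the junction reads, since both come from the same counts. The exon v2 was low in both of its events, with a mean of at most 0.0591, between c5 and v3. In that event its PSI was 4.88% and 5.12% with RBFOXi and 11.1% and 2.48% with SCRM, and the highest value was again in SCRM replicate 1. The constant exons c3 to c8 had a mean PSI of at least 0.998 in each group in their event with the most counts.

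No CD44 event was called different between RBFOXi and SCRM. Calls needed a Benjamini-Hochberg adjusted p under 0.05 from limma, over all tested events of the type, and a change in PSI of at least 0.1 (as a fraction). The variable exons between c5 and c6 had a PSI of at most 2.77% and could not fall by that much. Constant exons, with a mean PSI of 0.998 or more, could not rise by it. For such events a call in that direction could not be made. Of the 87 skipped exon events, 63 passed the filter on low counts (52 of 65 on variable exons and 11 of 22 on constant exons), and 0 of 63 were called, beside 0.114% of all 39615 events tested. The smallest adjusted p in CD44 was 0.99995. At an unadjusted limma p under 0.05 there were 3 of 63 (4.76%), beside 3.25% of all events. A quasi-binomial F test on the same counts called 0 of 63, beside 48 of all 39615. It had 5 of 63 at an unadjusted p under 0.05, beside 5.14% of all tested events of the 5 types. The median change in PSI over the 63 events was -1.02e-05, beside -5.65e-05 over all events tested. The groups did not overlap in 22 of 63 (34.9%), beside 30.8% of all events. RBFOXi was higher in 11, beside 14.3% of all events, and lower in 11, beside 16.5%. These shares are close to the background.

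Taken exon by exon, the change in log2 odds of inclusion had a 95% interval that held 0 for 14 of 15 exons. The exon v4 was the other one, at -0.95 ± 0.44 (SE), with an interval from -1.84 to -0.06, an unadjusted p of 0.0375 and a limma adjusted p of 0.99995. For v9 the change was -1.09 with an interval from -2.27 to 0.09, for v8 -0.49 (-1.34 to 0.37) and for v7 -0.34 (-1.29 to 0.60). Without SCRM replicate 1 the change of v9 was -0.49 and that of v8 -0.29, and without SCRM replicate 2 that of v9 was -1.70. For v3 it was -0.17 (-1.03 to 0.70), for v6 -0.17 (-1.02 to 0.69), for v10 -0.02 (-0.84 to 0.81) and for v2 0.10 (-0.92 to 1.13). For v5 it was -0.0035 (-0.94 to 0.93). These intervals reach 0.83 to 1.18 log2 units to each side, so changes of the odds within that width were not detectable with 2 libraries a group. They are not adjusted for the number of events, so a larger change could also go uncalled. The recovery of known changes of 2 log2 units is given with the processing below. Among the constant exons the change was 0.47 for c3, 0.01 for c4, 0.96 for c5, 0.79 for c6, 0.21 for c7 and -0.51 for c8, each with 0 inside its interval and few skipping reads behind it. The exon c2 had 1 event, which did not pass the filter.

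**Figure D4:**
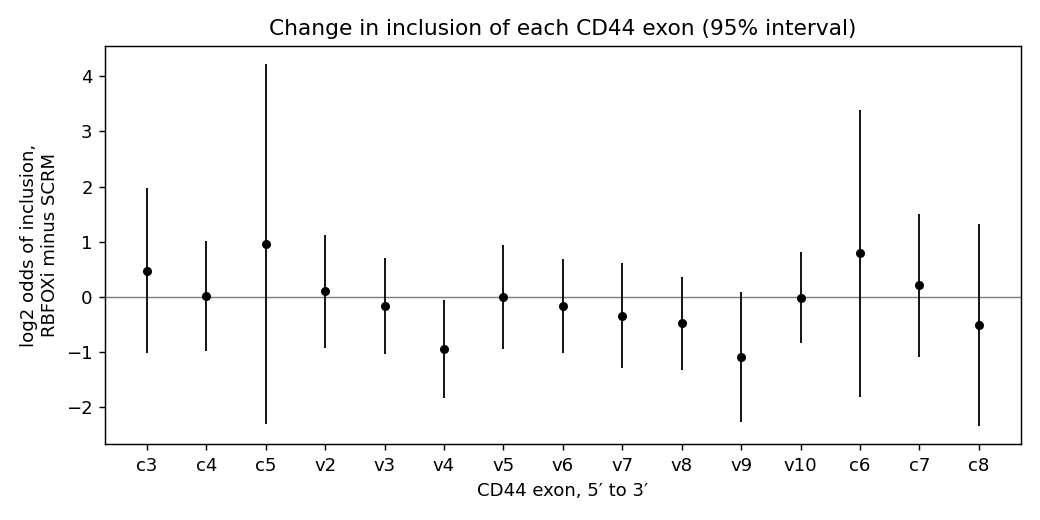
Change in the log2 odds of inclusion, RBFOXi minus SCRM (y axis), of each tested CD44 exon in its event with the most counts (x axis, 5′ to 3′). Points are limma estimates over 2 libraries a group and bars are 95% intervals. The interval of v4 (-1.84 to -0.06) lies below 0 and those of the other 14 exons hold 0.

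The exon v4 carried most of the CD44 events with a low unadjusted p. Against v10 (between c5 and v10) its PSI was 9.97% and 11.3% with RBFOXi and 30.5% and 14.5% with SCRM. Both RBFOXi libraries were below both SCRM libraries, and SCRM replicate 1 was far above the other 3. The change in log2 odds was -1.19 ± 0.46 (SE), with an unadjusted limma p of 0.0136 and an adjusted p of 0.99995. Without SCRM replicate 1 it was -0.51 with an unadjusted limma p of 0.361, and the v4 event between c5 and c6 went to -0.49 with 0.382. SCRM replicate 1 was the highest library in 6 of the 7 tested v4 events. The third skipped exon event with an unadjusted p under 0.05 was v3 between c5 and v5, where PSI was 100% and 100% with RBFOXi and 94.7% and 97.2% with SCRM. It compares v3 with the rare join from c5 to v5, which had 0 and 0 reads with RBFOXi and 3 and 4 with SCRM, so its log2 odds of 3.10 ± 1.46 (SE), with an unadjusted limma p of 0.0401 and an adjusted p of 0.99995, depend on the pseudocount.

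**Figure D5:**
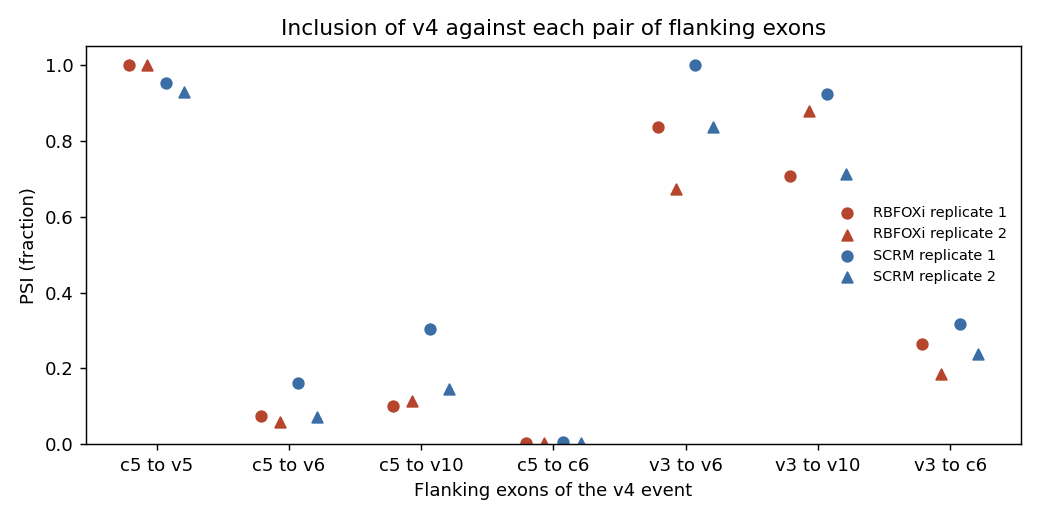
PSI of v4 (fraction, y axis) in its 7 tested skipped exon events, named by the flanking exons (x axis), in the 4 libraries. Circles are replicate 1 and triangles replicate 2, red for RBFOXi and blue for SCRM. SCRM replicate 1 is the highest library in 6 of the 7 events, and between c5 and v10 it lies at 0.305.

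All 79 mutually exclusive exon events of CD44 were tested and 0 were called, beside 0% of all 26176 events tested. In 60 of the 79 both exons were variable and in 19 both were constant. Since both constant exons of such a pair are normally kept, a PSI near 0.5 there is no choice between them. At an unadjusted limma p under 0.05 there were 4 of 79 (5.06%), beside 1.74% of all events. By the quasi-binomial F test there were 2 of 79, beside 5.14% of all tested events of the 5 types. That test called 0 in CD44, beside 9 of all 26176. The smallest adjusted p was 0.99997. The groups did not overlap in 30 of 79 (38.0%), beside 24.4% of all events. RBFOXi was higher in 15, beside 16% of all events, and lower in 15, beside 8.42%. The median change in PSI was 0.0122, beside 0.0100 over all events tested.

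All 4 of these events set v4 against a later exon, had less v4 with RBFOXi and had a limma adjusted p of 0.99997. Against v10 (between c5 and c6) the share of v4 was 0.117 and 0.119 with RBFOXi and 0.265 and 0.156 with SCRM, with a change in log2 odds of -0.94 ± 0.35 (SE) and an unadjusted limma p of 0.0249. Against v5 (between c5 and v6) it was 0.465 and 0.374 against 0.646 and 0.487, a change of -0.86 ± 0.38 (unadjusted limma p of 0.0491). Both had their highest value in SCRM replicate 1, and without that library the limma p was 0.161 and 0.292. Against v8 the share of v4 was 0.711 and 0.617 with RBFOXi and 0.859 and 0.801 with SCRM between v3 and v10, a change of -1.25 ± 0.52 (unadjusted limma p of 0.0393). Between v3 and c6 it was 0.618 and 0.565 against 0.735 and 0.764, a change of -1.02 ± 0.42 (unadjusted limma p of 0.0384). Between v3 and v10 SCRM replicate 1 was the highest, and without it the change was -0.997. Between v3 and c6 SCRM replicate 2 was the highest, and without SCRM replicate 1 the change was -1.13. By the quasi-binomial F test the unadjusted p was 0.0586 between v3 and v10 and 0.0649 between v3 and c6. For v4 against v10 and v5 that test gave 0.0169 and 0.0284. The comparisons with v8 rest on few reads, 29, 49, 30 and 53 between v3 and v10 and 33, 53, 36 and 54 between v3 and c6. All 4 events share reads of v4 with each other and with the skipped exon events, so they are not separate evidence. Without SCRM replicate 2, 4 CD44 events were called, v4 against v10, v4 against v7 and v3 against v4 among the variable exons and c2 against c6 among the constant ones. In that fit SCRM replicate 1 stands alone for SCRM and is assumed to vary like the RBFOXi libraries, and 903 events were called in all.

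SCRM replicate 1 also had fewer reads at the 5′ end of CD44. The junction from c3 to c4 had 6628 and 7510 reads with RBFOXi and 3594 and 7727 with SCRM, and the junction from c7 to c8 had 6424, 7342, 4748 and 7656. Their ratio was 1.03 and 1.02 with RBFOXi and 0.757 and 1.01 with SCRM. The counts over all skipped exon events, which count a read once in each event it falls in, ran from 114415530 in SCRM replicate 1 to 136097319 in RBFOXi replicate 2. Per 1000000 of these, the c7 to c8 junction had 51.5 and 53.9 reads with RBFOXi and 41.5 and 56.6 with SCRM, so the 2 groups overlapped. Such a level cannot tell fewer cells with CD44 from less CD44 RNA per cell. The part of SCRM replicate 1 in the v4 values was not tested beyond leaving it out.

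UGCAUG was looked for because RBFOXi carries it. It was searched as TGCATG, and as the shorter GCATG that it contains, on the strand of the gene, in at most 300 nt of intron on each side of an exon and no further than the next exon of its event. Before the exon, TGCATG lay beside 1 of the 15 tested CD44 exons (v7), beside 8.16% of 30617 tested exons in all. After the exon it lay beside 2 of 15 (v10 and c8), beside 8.36% in all. GCATG lay before 4 of 15 (v2, v5, v7 and c8), beside 23.7%, and after 2 of 15, beside 24.1%. The 3 TGCATG matches are shown with their surroundings in GRCh37, plus strand, with the motif in capitals.
Before v7, chr11:35227636-35227661: ttgctcaaacTGCATGgtcacagcag
After v10, chr11:35233208-35233233: tgtctgtgttTGCATGtgtgtgtgtg
After c8, chr11:35243470-35243495: gggattcatgTGCATGgtgcagctta
The first ends 7 nt before v7, inside the 3′ splice site shown above. The others begin 221 nt after v10 and 200 nt after c8. The exon v7 had a PSI of 0.974 and 0.955 with RBFOXi and 0.975 and 0.955 with SCRM between v6 and v8, a change in log2 odds of -0.04 ± 1.07 (SE). That event is near its ceiling, with 1 and 4 skipping reads with RBFOXi and 1 and 5 with SCRM. Between v6 and c6 the PSI of v7 was 0.340 and 0.340 with RBFOXi and 0.330 and 0.482 with SCRM. The change there was -0.39 ± 0.46 (SE), and the groups overlapped. No match for TGCATG lay in the windows of v4, which says only that these letters are not there.

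The 5 genes with a median PSI nearest to that of CD44, among 2195 other genes with at least 5 tested exons, were PAK4, SNHG17, OPA1, MRPL55 and FAM13A. The CD44 median over its tested events was 0.670 and 0.702 with RBFOXi and 0.674 and 0.628 with SCRM. The nearest gene, PAK4, which encodes a kinase, had 0.657 and 0.747 against 0.624 and 0.673, at a distance of 0.0824 over the 4 libraries. SNHG17, a non-coding RNA that hosts snoRNAs, was at 0.0870, OPA1, a mitochondrial fusion protein, at 0.110, MRPL55, a mitochondrial ribosomal protein, at 0.114, and FAM13A at 0.121. The CD44 median mixes events of opposite level and describes no exon of it.

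Genes that make, bind or act with CD44 were also described. A list of 33 symbols covered hyaluronan synthesis and breakdown, other hyaluronan receptors, cytoplasmic linkers, sheddases, co-receptors and signalling partners. Of these, 24 had a tested event. By limma 0 of their 169 events were called, beside 0.0624% of all 72115 tested events of the 5 types, and 12 (7.10%) had an unadjusted p under 0.05, beside 2.67%. By the quasi-binomial F test 0 were called, beside 0.0846%, and 16 (9.47%) had an unadjusted p under 0.05, beside 5.14%. Overlapping events of a gene share reads, and NF2 held 22, EPB41 16 and ADAM10 16 of the 169. These shares therefore do not count separate genes. The lowest p was in EPB41, a protein 4.1 family linker of membrane proteins to the cytoskeleton. Its exon at chr1:29386934-29386996 (63 nt) had a PSI of 0.252 and 0.202 with RBFOXi and 0.506 and 0.672 with SCRM. These values rest on 141 and 97 reads with RBFOXi and 21 and 99 with SCRM. The groups did not overlap, as in 30.8% of all skipped exon events. The change in log2 odds was -2.28 (unadjusted limma p of 0.000128, adjusted p of 0.0873). With the log2 odds centred within each library the limma adjusted p was 0.0336 and without SCRM replicate 1 it was 0.00371, so this exon was called in both. The next was NF2, merlin, which binds the CD44 tail. Its exon at chr22:30079009-30079068 (60 nt) had a PSI of 0.0596 and 0.110 with RBFOXi and 0.265 and 0.268 with SCRM, a change of -2.01 (unadjusted limma p of 0.000228, adjusted p of 0.135). Both exons were lower in both RBFOXi libraries. Both missed the threshold in the main limma fit, which used all 4 libraries without centring and had the treatment as its only term.

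A list of 13 RNA-binding proteins and other regulators that are known to act on CD44 exons, or belong to the RBFOX family, was described in the same way. Of these, 9 had a tested event. By limma 0 of their 139 events were called and 7 (5.04%) had an unadjusted p under 0.05, beside the same 0.0624% and 2.67% of all events. By the quasi-binomial F test 0 were called and 17 (12.2%) had an unadjusted p under 0.05, beside 0.0846% and 5.14%. Here too overlapping events share reads, and SND1 held 44 and HNRNPM 23 of the 139. ESRP1, ESRP2, RBFOX1 and RBFOX3 had no tested event and RBFOX2 had 9. HNRNPM, which binds RBFOX2 and promotes skipping of CD44 variable exons, had the lowest p, in a mutually exclusive exon event whose upstream exon lies at chr19:8539051-8539128 (78 nt). That exon's share was 0.0359 and 0.0333 with RBFOXi and 0.0168 and 0.0202 with SCRM, a change of 0.93 (unadjusted limma p of 0.00787, adjusted p of 0.99997). TRA2A, an SR-like activator, was next. Its exon at chr7:23561751-23562051 (301 nt) had a PSI of 0.852 and 0.911 with RBFOXi and 0.764 and 0.744 with SCRM, a change of 1.32 (unadjusted limma p of 0.0128, adjusted p of 0.99995). The groups did not overlap in either event, as in 24.4% of all mutually exclusive exon events and 30.8% of all skipped exon events.

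Cell type markers could be seen only through their events, which says nothing of a gene without one. VIM, the mesenchymal and glial intermediate filament, had up to 128266 to 185009 counts in its fullest event in each library, and NES had 179 to 432. GFAP, S100B, SOX2 and OLIG2 had no skipped exon event, nor had EPCAM, CDH1, ESRP1 and KRT18 of the epithelial markers, while KRT8 had 153 to 247 counts. Of the immune markers PTPRC had no event and CD68 had 45649 to 65957 counts. Of the endothelial markers PECAM1 had no event and VWF had 2 to 19 counts. Of the neuronal markers RBFOX3 had none, SYP 24 to 34 and MAP2 176 to 642 counts. The astrocytic markers GFAP and S100B were thus not seen here.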

How the data were processed

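RNA was sequenced from 4 U87MG libraries. The authors aligned reads to hg19 with STAR 2.4.2a (per the labels) and made the event tables with rMATS and UCSC known genes. The deposited cells hold inclusion and skipping counts, joined by commas for both replicates of a group, and the effective lengths of both forms (other units: not a plain count column). The authors' own p-values, FDR and PSI differences were left unused. Groups came from the transfection label and replicates from the description. How reads crossing several junctions were counted is not given in the sources used here, and overlapping events share reads.

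PSI was computed as (I/length)/(I/length + S/length). The filter on low counts kept events with 5 or more reads per library, 20 on average and 4 of each form over all libraries. limma 3.58.1 (R 4.3.3) was fitted to log2((I + 0.5)/(S + 0.5)) over all events of a type, with a variance trend on their information and Benjamini-Hochberg adjustment. The fits were tested on 10 sets of simulated data, with 200 of 39615 skipped exon events changed by 2 log2 units. Of these 200, limma recovered a median of 29.5 (20 to 41), with at most 2 false calls. The quasi-binomial F test recovered a median of 34.5 (22 to 38), with at most 4. Most of these changed events were thus not called with 2 libraries a group. They were drawn from events with a plain share of inclusion counts above 0.05 and not near 1. An added spread between libraries (SD 0.5 log2 units) was assumed. The constant exons, and all variable exons but v6 and v10 between c5 and c6, lay outside that range. The recovery does not describe them. Shares of c5 reads were compared by a two-sided exact permutation test. Exons with no event in the tables were not analysed here. Members, lists and tests were chosen with earlier results of these data known. In full, the text names each tested CD44 exon by its event with the most counts, other CD44 event types with an unadjusted p under 0.05, the 5 nearest genes, and from each list the called events or else the 2 with the smallest p. Other v4, v7 and v8 events, those called without SCRM replicate 2, and the junction shares were chosen after their values were seen. Alternatives were pseudocounts, filters, centring, the replicate block, the plain share, fits on a single event of each exon, fits without each library and, added after seeing the data, a quasi-binomial F test and a trend on log2 information. Sequences came from GRCh37. Figures were drawn with matplotlib 3.10.9, and Wilson intervals came from scipy 1.17.1.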

Additional observations from a re-analysis of the deposited data

How the results depend on the processing

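The count of called CD44 events was 0 under every alternative run for skipped exons, and 0 for mutually exclusive exons except without SCRM replicate 2 (0 to 4 over the libraries left out). The edgeR alternative was not run, since the values are not a plain count column. The median change in PSI of the skipped exon events stayed within the spread, from -0.000384 to 0.000199 with a library left out. The deviations of RBFOXi replicate 1 and SCRM replicate 1 from their group means had a correlation of 0.0944 over the tested skipped exon events. With 2 libraries a group the deviations of replicate 2 are the same with the sign turned. Titles of same-numbered libraries share a suffix, and the labels do not say whether it marks a batch. The numbers were not taken as pairs in the main fit, and the replicate block was run as an alternative. Of the events in the list of CD44 partners, 1 was called with centring (EPB41), 5 with the replicate block (3 in NF2 and 2 in EPB41) and 0 to 2 with a library left out, against 0, and in the list of regulators 0 under every alternative run. The replicate block called 0 CD44 events of either type, with smallest adjusted p of 0.175 and 0.399, and moved the count over all events from 45 to 108 (skipped exons) and from 0 to 56 (mutually exclusive exons). Over all skipped exon events the count was 34 to 66 under the other full-sample settings and 13 to 51 with a library left out, and for mutually exclusive exons 0 to 9 and 5 to 903.

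The log2 odds change of each exon kept its sign in 173 of 195 recomputed values. For c4 it became -0.038 with centring and -0.076 with the quasi-binomial F test. The same test gave 0.036 for v5, 0.011 for v10 and -0.0050 for c6, and a pseudocount of 0.1 gave 0.00039 for v5. With a library left out the ranges were -1.42 to -0.49 for v4, -0.68 to -0.29 for v8, -1.70 to -0.49 for v9, 0.21 to 0.74 for c3, -0.32 to 0.35 for c4, -0.90 to 2.82 for c5, -0.15 to 0.35 for v2, -0.55 to 0.21 for v3, -0.29 to 0.28 for v5, -0.60 to 0.26 for v6, -0.83 to 0.15 for v7, -0.21 to 0.18 for v10, -0.95 to 2.52 for c6, -0.0099 to 0.42 for c7 and -1.39 to 0.37 for c8. The cause was not tested. The share of c5 reads into any variable exon differed by -3.26 to 0.286 percentage points (RBFOXi minus SCRM) with a library left out, and into v4 by -0.859 to -0.197. The number of libraries, 2 a group, limits these values.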
